A study of Mus with 14 samples.

Results

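The cells described are granulocyte progenitors of mouse bone marrow that carry transcripts of Cebpe and of the primary granule protease Elane but few of the later granule gene Camp. They were chosen from single-cell RNA sequencing of 14 libraries by raw counts of unique molecular identifiers (UMIs, each standing for 1 captured RNA molecule). A cell had to hold at least 1000 UMIs, 500 detected genes and under 10% mitochondrial UMIs. It further had to hold at least 10 Elane UMIs, at least 1 Cebpe UMI, fewer than 10 Camp UMIs and no UMI of F13a1 or of Ms4a2. F13a1 marks monocyte progenitors, and Ms4a2 marks basophils and mast cells. The rule found 8953 cells among 70038 that passed the first 3 filters (12.8%). Since the choice used the measured values of these 5 genes, their levels are given as description only.

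Each library is the donor-derived progenitor fraction of 1 transplanted mouse. CD45.2+ donor marrow had been transplanted together with CD45.1+ competitor marrow into aged, lethally irradiated hosts, which then received poly(I:C). Marrow of those hosts was transplanted again into aged, irradiated hosts, which were harvested 20 weeks later, and lineage-negative Kit+ CD45.2+ cells were sorted. The 4 genotypes are labelled MxCre (3 mice), Dnmt3a (4 mice), Dnmt3a;Tnfr1KO (3 mice) and Dnmt3a;Tnfr2KO (4 mice). The last pair are called Tnfr1KO-labelled and Tnfr2KO below, and both carry the Dnmt3a label as well. MxCre is the interferon-inducible Cre transgene that poly(I:C) switches on. It is not restricted to granulocytes, and the MxCre mice serve as controls that share the transplants and the poly(I:C). The labels used here do not name the Dnmt3a allele, the deleted part of either receptor gene or the first-round donor of each mouse. Mice that share a first-round donor therefore cannot be told from independent ones, and p-values measure the spread between mice only. The sort left Kit+ cells, so mature Kit-negative neutrophils are largely outside the material.

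Neutrophils form in the marrow from myeloblasts through promyelocytes and myelocytes, and their granules are filled in the order in which the proteins are made. Promyelocytes make the primary, or azurophil, granule proteins myeloperoxidase, neutrophil elastase, proteinase 3 and cathepsin G. C/EBPε, the transcription factor encoded by Cebpe, is required for the step to the myelocyte and for the genes of the secondary granules, among them lactoferrin, cathelicidin and neutrophilic granule protein. Cells with Cebpe and Elane but little Camp therefore stand around the promyelocyte stage. Tumour necrosis factor acts through 2 receptors, TNFR1 (gene Tnfrsf1a) and TNFR2 (gene Tnfrsf1b), and DNMT3A is a de novo DNA methyltransferase that is often mutated in clonal hematopoiesis.

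Members numbered 139 to 1242 per library. Their median depth was 27445 UMIs and 4719 genes per cell, and the library medians ran from 21278.5 to 45691 UMIs. Dnmt3a replicate 1 stood apart. It kept 26.9% of its barcodes against a median of 90.2% over the libraries, had the fewest members and the deepest cells. Of the members, 539 (6.02%) were called as doublets and were kept. Among 8947 different barcodes of members, 6 occurred in more than 1 library. The libraries also fell into 2 sets that the genotype labels do not name. In cells outside the gate, the summed level of Gm10076 and Hist1h2ap was 1256 to 4716 CPM (UMIs scaled to a common total per library) in the 3 MxCre, the 3 Tnfr1KO-labelled and the first 2 Tnfr2KO libraries, called set 1 below. It was 194 to 298 CPM in the 4 Dnmt3a and the last 2 Tnfr2KO libraries, called set 2, and the widest gap between neighbouring libraries was 4.21-fold. All Dnmt3a libraries belong to set 2 and all MxCre and Tnfr1KO-labelled libraries to set 1. For comparisons between these groups, genotype and library set cannot be told apart. Tnfr2KO libraries stand in both sets, so they can be compared with Dnmt3a within set 2 and with Tnfr1KO-labelled libraries within set 1. Values within sets, or with the set as a term in the fit, are given beside the main results between genotypes.

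The members held the primary granule transcripts that the label implies. Elane, which the rule selects, was their second most abundant transcript (mean 8062 CPM over the 14 libraries). Of the granule protease and peroxidase genes that the rule did not use, Prtn3 (proteinase 3), Mpo (myeloperoxidase) and Ctsg (cathepsin G) ranked 4, 7 and 20. These CPM values count 3' ends of transcripts, so they need no correction for gene length but can differ between genes in capture. Of the marker genes that the rule did not use, Cd63, a granule membrane tetraspanin, was detected in 98.2% of members. Gstm1, a glutathione transferase, was detected in 97.4%, and Fcgr3, the activating Fc gamma receptor III, in 88.2% (70.0% to 94.2% by library). As a background for such shares, 3142 cells with at least 3 UMIs of both erythroid genes Klf1 and Car1 were counted over all libraries together (683 of them from MxCre replicate 1), at a median of 30429 UMIs. Among these erythroid cells 68.8% held a UMI of Cd63, 31.4% of Gstm1 and 6.49% of Fcgr3. Cebpe was found in 4.46% of the erythroid cells and at least 10 Elane UMIs likewise in 4.46%, and 34 of them (1.08%) passed the whole rule. Dnmt3a replicate 3 had the highest such background, with Cebpe in 16.9% and at least 10 Elane UMIs in 25.8% of its erythroid cells.

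Transcripts of the later granules, and of S100a9, were at or near background in most members. Ltf (lactoferrin) was found in 1.79% of members and 1.81% of erythroid cells, and Ngp (neutrophilic granule protein) in 7.81% and 5.98%. S100a9 was found in 34.7% of members and 28.7% of erythroid cells. Dnmt3a replicate 4 stood apart, with Ltf in 17.8%, Ngp in 39.8% and S100a9 in 95.8% of its members, against at most 5.03%, 16.6% and 66.3% in any other library. S100a8, its partner in calprotectin, stood further above background, at 55.2% and 28.2%. Wfdc21, a small secreted protein with a whey acidic protein domain, was found in 43.7% of members and 4.46% of erythroid cells. Fcnb, the granule lectin ficolin B, was found in 15.9% and 1.11%. Cd34, the stem and progenitor antigen, was present in 81.9% of members and 13.1% of erythroid cells.

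Markers of other lineages were mostly low. Some were nevertheless common among members of every library, and others stood high in single libraries. Summed over 6 eosinophil markers, the members held 1.89 to 65.4 CPM, led by Prg2 (major basic protein). Prg2 reached 10 UMIs in 51 members (0.570%), spread over 12 libraries. The basophil and mast cell list, led by Cpa3, summed to 116 to 288 CPM. Cpa3 was found in 41.1% and the basophil protease Mcpt8 in 66.2% of members, against 18.7% and 4.87% of erythroid cells. The other counted genes of that list were lower, with Gata2 at a mean of 16.0 CPM. Fcer1a, Cma1 and Prss34 were near 0, at means of 0.487, 0.256 and 0.0916 CPM. The monocyte list summed to 76.9 to 117 CPM, and its leading gene Ms4a6c was found in 64.0% of members against 7.92% of erythroid cells. Irf8, the transcription factor of the monocyte branch, was found in 25.6% and Csf1r, the M-CSF receptor, in 13%, against 6.62% and 2.71% of erythroid cells. The dendritic list summed to 184 to 236 CPM, and 3 of its 6 genes were over 10 CPM. These were Bst2 (mean 131 CPM), Tcf4 (38.4) and H2-Ab1 (33.9). Siglech, on the same list, which marks plasmacytoid dendritic cells, was at 0 in all 14 libraries. Nkg7, on the T and NK cell list, was found in 99.7% of members and 58.1% of erythroid cells, at a mean of 955 CPM in members, and it made up most of that list's 693 to 1082 CPM. The erythroid list ran from 13.9 to 615 CPM and the B cell list from 37.2 to 155 CPM, both highest in Dnmt3a replicate 4. The part these transcripts play in the results below was not tested.

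With 10 to 12 Elane UMIs, 153 members stood just inside, while 171 cells with 7 to 9 Elane UMIs and an otherwise passing profile stood just outside. A single Cebpe UMI admitted 1458 members, whose median depth was 22172.5 UMIs. Another 2270 cells passed everything else with no Cebpe UMI, at a median of 17169 UMIs. At the Camp threshold 16 members held 7 to 9 UMIs and 13 excluded cells 10 to 12. The exclusion genes removed more cells than the Cebpe threshold did. F13a1 excluded 3449 cells with 1 UMI and 6967 cells with 2 or more, and Ms4a2 excluded 572.

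To ask whether the genotypes differed in how many of these cells they hold, the share of members among all filtered cells was compared. MxCre libraries held 10.6%, 11.8% and 7.24% members. Dnmt3a libraries held 7.11%, 12.2%, 16.9% and 4.56%. Tnfr1KO-labelled libraries held 15.6%, 10.1% and 14.5%, and Tnfr2KO libraries 16.0%, 13.4%, 12.7% and 18.0%. Dnmt3a thus spanned nearly the whole range, and every pair of groups that was compared overlapped. Every Tnfr2KO library stood above every MxCre library, but this pair was not compared. The means were 9.86 ± 2.34% (SD, n = 3), 10.2 ± 5.48% (n = 4), 13.4 ± 2.87% (n = 3) and 15.1 ± 2.45% (n = 4). Each library's own 95% Wilson interval, which covers counting error only, was far narrower, from 4.05% to 5.13% in the lowest library and from 17.1% to 19.0% in the highest. The difference was 0.319 percentage points for Dnmt3a against MxCre (exact two-sided permutation test p = 0.971). Its sign turned without Dnmt3a replicate 3 (-1.92 points), Dnmt3a replicate 2 (-0.339) or MxCre replicate 3 (-0.99), and as a share of cells with at least 10 Elane UMIs it was -9.71 points (exact permutation p = 0.114). It was 3.21 points for Tnfr1KO-labelled against Dnmt3a (exact p = 0.4), 4.88 for Tnfr2KO against Dnmt3a (exact p = 0.171) and 1.67 for Tnfr2KO against Tnfr1KO-labelled (exact p = 0.457). After adjustment over these 4 comparisons the permutation p-values were 0.610 or higher. The smallest raw p that 4 against 4 mice can give is 0.0286, and 3 against 4 mice cannot reach that value. With every cell thinned to 5000 UMIs and the rule applied anew, which also admits cells that lost their F13a1, Ms4a2 or Camp UMIs, the difference of Tnfr2KO and Dnmt3a was 3.92 points (exact permutation p = 0.0857). Within set 2 it was 5.20 points (exact permutation p = 0.267, smallest possible 0.133), and 1.34 points between Tnfr2KO and Tnfr1KO-labelled libraries within set 1 (exact p = 0.8). With cells thinned, the value within set 2 was 5.59 points without overlap (exact permutation p = 0.133), and that within set 1 turned to -0.985 points (exact p = 1). For Tnfr1KO-labelled against MxCre within set 1, added after the sets were seen, the difference was 3.53 points (exact permutation p = 0.3). Thinned, it was 4.44 points (exact permutation p = 0.2). A share of cells cannot separate more members from fewer other cells in the sort.

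**Figure D1:**
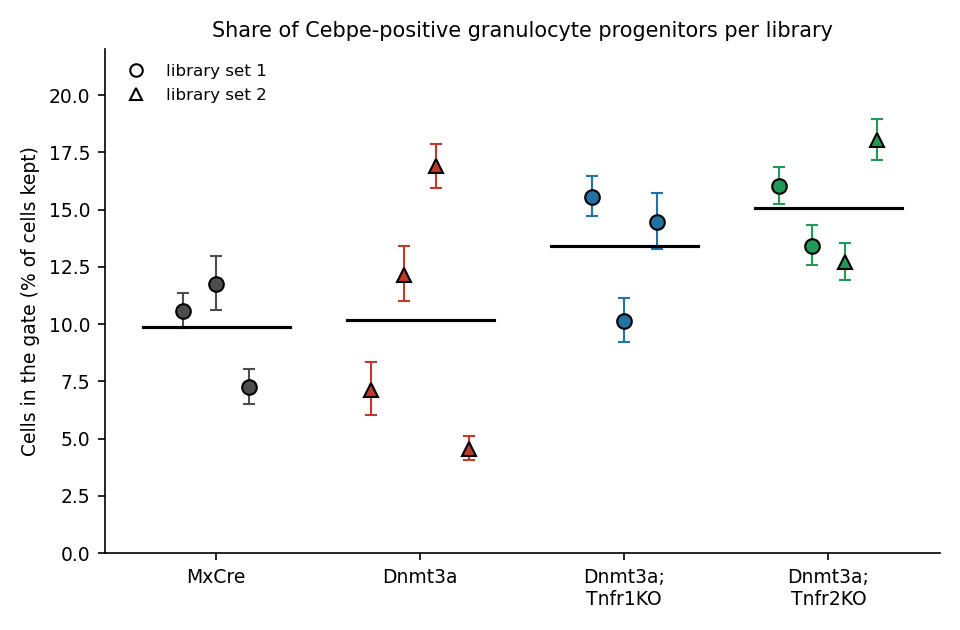
Percent of filtered cells that passed the rule, 1 point per library with its 95% Wilson interval, by genotype, with a line at each group mean. Circles are libraries of set 1 and triangles of set 2. The 4 Dnmt3a libraries lie between 4.56% and 16.9% and overlap all other groups.

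Among themselves the members differed in some late granule and S100 transcripts along with their Cebpe level. The 8754 members with at least 5000 UMIs were each thinned to 5000 UMIs, after which 3612 held 0, 2875 held 1, 1351 held 2 and 916 held 3 or more Cebpe UMIs. From the first of these classes to the last, the summed level of the secondary and tertiary granule genes went from 2053 to 3489.8 CPM and was higher in the last class in 14 of 14 libraries. S100a8 went from 348 to 1042 CPM, S100a9 from 95.4 to 455 and Fcnb from 11.9 to 40.6, each higher in 13 libraries. Wfdc21 went from 87.9 to 159.8 CPM (13 libraries), Cd63 from 557 to 914 (14 libraries) and Pglyrp1, a peptidoglycan recognition protein of granules, from 186 to 263 (14 libraries). Other secondary granule genes did not follow. Lcn2 was at 48.8 and 54.0 CPM (higher in 6 libraries), Ltf at 1.06 and 0.65 (1 library) and Ngp at 3.75 and 7.60 (8 libraries). The primary granule list differed less, since its last class stood at 1.12 times the first. From the first class to the last, Prtn3 was at 6549, 7324, 7390 and 6969 CPM. Gfi1, a transcriptional repressor needed for neutrophils, was at 67.5, 75.6, 84.2 and 69.6 CPM. Both were thus highest in the class with 2 Cebpe UMIs. The monocyte list was lower in the last class in 13 of 14 libraries, at 129 and 71.9 CPM. The basophil and mast cell list went from 193 to 315 CPM (13 libraries) and the eosinophil list from 2.09 to 293 (14 libraries). The eosinophil value rested on few cells, with an SD of 446 CPM over the libraries in the last class and a range of 5.88 to 1548, and 5 cells per library held 52.9% to 100% of the Prg2 UMIs of all members.

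Members can also be split by the few Camp UMIs that the rule allows, though these were close to background. Camp was at 0 in 88.8% of members (7954 cells), and 999 (11.2%) held 1 to 9 UMIs, against 8.63% of erythroid cells with a Camp UMI. In Dnmt3a replicate 4 it was found in 55.6% of members and 43.5% of erythroid cells. Free RNA and expression therefore cannot be told apart in these cells one by one, and only mean levels of the split are given. The secondary and tertiary list was at 2190 CPM in members without and 4988 in members with Camp UMIs, higher in 13 of 14 libraries. Members with Camp UMIs had more S100a8 (1846 against 362 CPM), Fcnb (89.2 against 14.6) and Wfdc21 (295 against 102). They also had more Elane, at 10358 against 7777 CPM, more Prtn3, at 8881 against 6865, and more Gfi1, at 88.6 against 71.8 CPM, the last pair in all 14 libraries. They had less Cd34 (104 against 149 CPM) and less of the interferon response list (2605 against 2919 CPM), each in all 14 libraries. Other secondary granule genes were mixed. Lcn2 was at 47.5 against 50.5 CPM (higher in 5 libraries), Ltf at 1.14 against 0.70 (7 libraries) and Ngp at 8.56 against 4.06 (12 libraries). Cebpe, Elane and Camp define the gate, so these classes are a description and carry no test. Cycling transcripts were common in the members, with a UMI of Mki67 in 72.7% of them and in 82.3% of erythroid cells. In members thinned to 5000 UMIs the S phase list took a median of 0.40% of UMIs (10th to 90th percentile 0.20% to 0.62%), and the G2 and M phase list 0.54% (0.24% to 1.12%). The secondary and tertiary granule list had the widest relative spread between cells of the lists so compared, with a median of 0.16% (0.06% to 0.40%). It also took the smallest share of UMIs among them, and the part of counting noise in that spread was not tested. The primary granule list took 2.58% (1.48% to 4.30%).

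**Figure D2:**
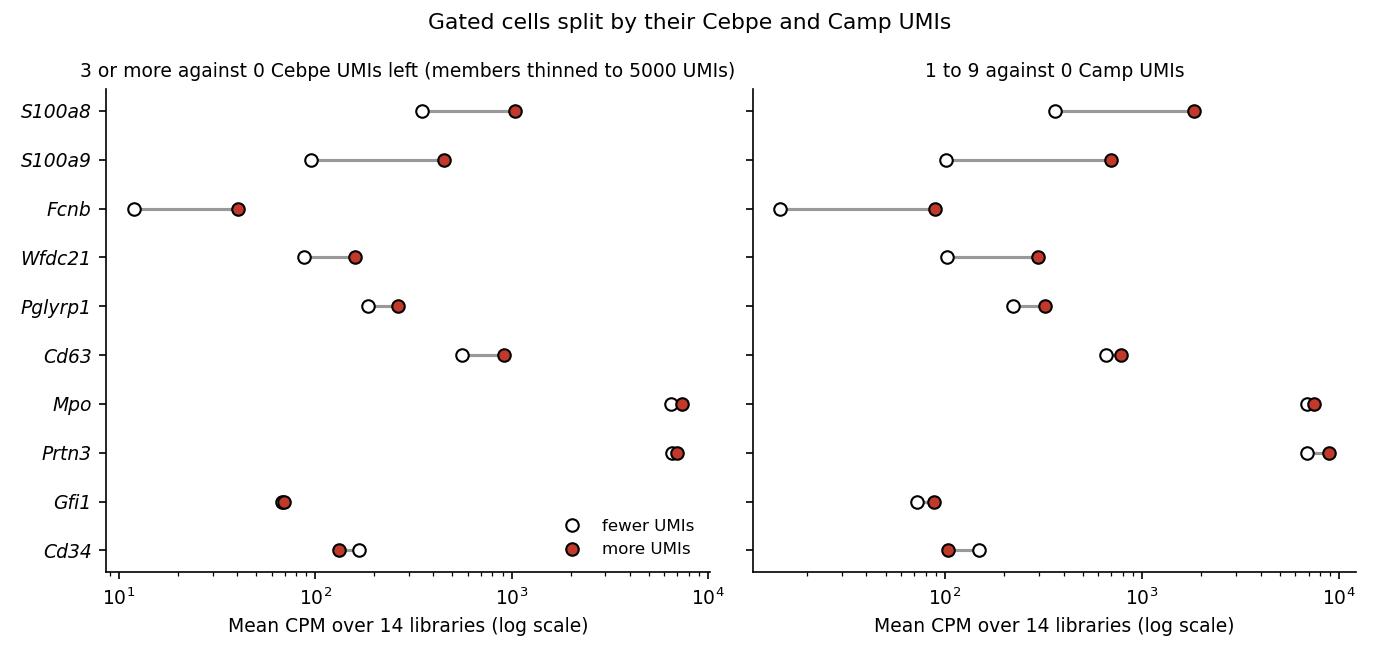
Mean CPM over 14 libraries, on a log axis, of 10 genes in members, split by Cebpe UMIs after thinning to 5000 UMIs (left, 8754 members) and by Camp UMIs (right, all members). In the left panel S100a8 is at 1042 CPM with 3 or more Cebpe UMIs left and at 348 with 0, while Prtn3 is at 6969 and 6549 CPM.

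Members were next set against the 2270 cells that met the same rule except that they held no Cebpe UMI. Any gene that rises or falls with Cebpe was bound to differ between these gates, so the values describe the choice of cells and carry no test. The Cebpe-negative cells were also shallower, with library medians of 2253 (Tnfr1KO-labelled replicate 1) to 38146 UMIs. In a fit with library as a block over 14 libraries, 2131 of 10319 genes were higher (20.7%) and 2368 lower (22.9%) in members (edgeR quasi-likelihood, adjusted p under 0.05), which is 43.6% of all genes tested. With cells thinned to 5000 UMIs the counts were 972 (10.7%) and 797 (8.79%) of 9063 genes, 19.5% together. The thinned gates hold other cells. Of 7794 cells that passed the whole rule after thinning, 4688 had been members and 3106 came from outside, and of 8941 in the Cebpe-negative gate 3001 had been members, 821 Cebpe-negative cells and 5119 neither. Between the original and the thinned gates 1377 genes were called both times, 1314 of them with the same sign.

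Granule genes and S100a8 made up the upper end of this contrast. In the following values the first is the mean of members, the second the mean of Cebpe-negative cells, and the third the log2 fold change with its standard error (SE). S100a8 (548 against 72.4 CPM, 3.05 ± 0.18), Fcnb (22.7 against 2.77 CPM, 3.17 ± 0.16) and Wfdc21 (128 against 16.8 CPM, 2.94 ± 0.12) differed most among well-measured granule and S100 genes, and Pglyrp1 followed (236 against 72.99 CPM, 1.68 ± 0.05). The marker genes that the rule did not use were all higher in members. Cd63 stood at 679 against 270.1 CPM, 1.35 ± 0.04, Gstm1 at 497 against 214 CPM, 1.23 ± 0.05 and Fcgr3 at 158 against 72.4 CPM, 1.11 ± 0.06. Gfi1 was at 74.98 against 33.6 CPM, 1.14 ± 0.05, Ms4a3, a membrane protein of committed granulocyte and monocyte progenitors, at 1559.8 against 766 CPM, 1.04 ± 0.04, and Clec12a, an inhibitory lectin of myeloid cells, at 435 against 202 CPM, 1.10 ± 0.05. Of the primary granule list 13 of 18 tested genes were higher and 2 lower (median log2 fold change 0.62, against -0.01 over all genes). The proteases themselves differed little in fold, with Ctsg at 5714 against 3489 CPM, 0.72 ± 0.02 and Mpo at 7075 against 4547 CPM, 0.65 ± 0.02. The secondary and tertiary list had 13 of 17 higher and 2 lower (median 0.73). Of the NADPH oxidase and glutathione list, which makes and buffers the oxidants of phagocytes, 14 of 24 were higher and 5 lower (median 0.15), among the former Gsr, glutathione reductase (349 against 165 CPM, 1.07 ± 0.04), and Ncf1, the p47 oxidase subunit (81.3 against 48.3 CPM, 0.73 ± 0.05). All but 1 of 35 genes of the secretory pathway and protein folding were higher (median 0.33, or 0.08 after thinning). Sdf2l1, a chaperone partner of the endoplasmic reticulum, was at 350.2 against 223 CPM, 0.64 ± 0.03.

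The lower end held stem cell, monocyte and interferon genes. All 6 tested stem and multipotent progenitor markers were lower (median -0.85), including Cd34 (144 against 272 CPM, -0.90 ± 0.03), Flt3, a cytokine receptor of early progenitors (3.26 against 12.6 CPM, -1.93 ± 0.10), and Meis1, a homeobox factor of stem cells (12.8 against 25.4 CPM, -0.93 ± 0.06). All 6 tested monocyte markers were lower too (median -1.88), including Irf8 (20.8 against 81.9 CPM, -1.97 ± 0.06), Ccr2, the chemokine receptor of monocytes (9.72 against 34.8 CPM, -1.82 ± 0.08), Ctss, a lysosomal protease (1.67 against 6.93 CPM, -1.97 ± 0.12), and Csf1r (5.49 against 12.7 CPM, -1.18 ± 0.09). After thinning, the monocyte median was -1.52. Of the interferon response list 22 of 34 genes were lower and 2 higher (median -0.21), led by Ifitm1 (116 against 282 CPM, -1.34 ± 0.04) and Ifitm3 (153 against 271 CPM, -0.83 ± 0.03), 2 antiviral membrane proteins. The MHC class I list had 15 of 20 genes lower and 1 higher (median -0.14). Sox4, a transcription factor of immature progenitors, was at 96.9 against 174 CPM, -0.83 ± 0.04, and Ccnd1, cyclin D1, at 16.3 against 36.1 CPM, -1.14 ± 0.05. Several genes of the lineage did not separate the gates by much. Cebpa, which acts before Cebpe in the granulocyte series, stood at 78.2 against 82.6 CPM, -0.07 ± 0.03, Tnfrsf1a at 51.995 against 48.2 CPM, 0.12 ± 0.04 and Tnfrsf1b at 14.1 against 14.2 CPM, -0.04 ± 0.08. Prg2 was at 25.2 against 0.379 CPM, 5.91 ± 0.20, a fold carried by few cells, since 3.44% of members held a Prg2 UMI and 5 cells held 52.9% to 100% of its UMIs in each library. The basophil and mast genes Cpa3 (105 against 139 CPM, -0.34 ± 0.09) and Mcpt8 (74.2 against 97.97 CPM, -0.34 ± 0.08) were lower in members here and higher after thinning, at log2 fold changes of 1.09 and 0.14. Hbb-bs, a haemoglobin chain, was called higher at a log2 fold change of 1.23, which became -1.22 with doublets removed and -0.10 after thinning.

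At the other end stood 1702 cells with at least 10 Camp UMIs and no F13a1 or Ms4a2 UMI. They numbered 5 to 609 per library, 609 of them in Dnmt3a replicate 4, and the 11 libraries with at least 20 entered the fit. Camp divides these gates by rule, so most genes of maturation were bound to differ. Of 10667 genes tested, 4586 were higher (43%) and 3765 lower (35.3%) in members, 78.3% together, against 3118 (40.9%) and 2682 (35.2%) of 7629 after thinning (76% together). In the Camp-high cells the secondary granule and S100 transcripts dominated. Ngp was at 4.12 against 39877 CPM, -13.43 ± 0.26, Ltf at 0.844 against 6297 CPM, -13.16 ± 0.28 and Chil3, a chitinase-like secreted protein, at 2.68 against 6609 CPM, -11.35 ± 0.20. S100a8 was at 518 against 155563 CPM, -8.25 ± 0.19 and S100a9 at 158 against 158385 CPM, -10.04 ± 0.21. All 28 tested genes of the secondary and tertiary list were lower in members (median -8.30, against 0.12 over all genes). Wfdc21 (118 against 5684 CPM, -5.66 ± 0.13) and Fcnb (20.2 against 1179 CPM, -5.95 ± 0.14) belonged to them. Cybb, the catalytic oxidase subunit, was at 9.03 against 1514 CPM, -7.38 ± 0.11 and Lyz2, lysozyme, at 97.03 against 9266 CPM, -6.54 ± 0.12.

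Members held more of the machinery of growth and secretion than the Camp-high cells. All 30 genes of ribosome biogenesis were higher (median 1.88), and so were 31 of 35 secretory genes, with 3 lower (median 0.88). Among them were Srm, spermidine synthase (225 against 36.5 CPM, 2.73 ± 0.14), Calr, the lectin chaperone calreticulin (1762 against 312 CPM, 2.58 ± 0.13), and Nop16, a nucleolar protein (79.3 against 15.004 CPM, 2.46 ± 0.12). Ctsg (4820.0 against 979.99 CPM, 2.50 ± 0.19), Mpo (6093 against 1770.0 CPM, 1.97 ± 0.18), Cd34 (115 against 23.9 CPM, 2.38 ± 0.14) and Cebpa (64.4 against 19.4 CPM, 1.74 ± 0.13) were higher in members. The cell cycle lists went apart. Of 45 S phase genes 29 were higher in members and 6 lower (median 0.44), while of 53 genes of G2 and M phase 48 were lower and 2 higher (median -1.08), with Mki67 at 113 against 398 CPM, -1.83 ± 0.07 and the kinetochore gene Cenpf at 57.8 against 213 CPM, -1.90 ± 0.08. Cell cycle regulators switched as well, with Ccnd2, cyclin D2, at 127 against 28.3 CPM, 2.26 ± 0.14, Cdkn2d, the inhibitor p19, at 21.02 against 239.6 CPM, -3.50 ± 0.08 and E2f2 at 2.75 against 65.97 CPM, -4.58 ± 0.11. Of the markers, Gstm1 was higher in members (423 against 184 CPM, 1.32 ± 0.14), Cd63 lower (573 against 759.6 CPM, -0.41 ± 0.05), and Fcgr3 was at 132 against 129 CPM, -0.01 ± 0.09. Cd63 and Fcgr3 thus differed more between members and Cebpe-negative cells than between members and Camp-high cells, while the reverse held for S100a8 and S100a9.

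**Figure D3:**
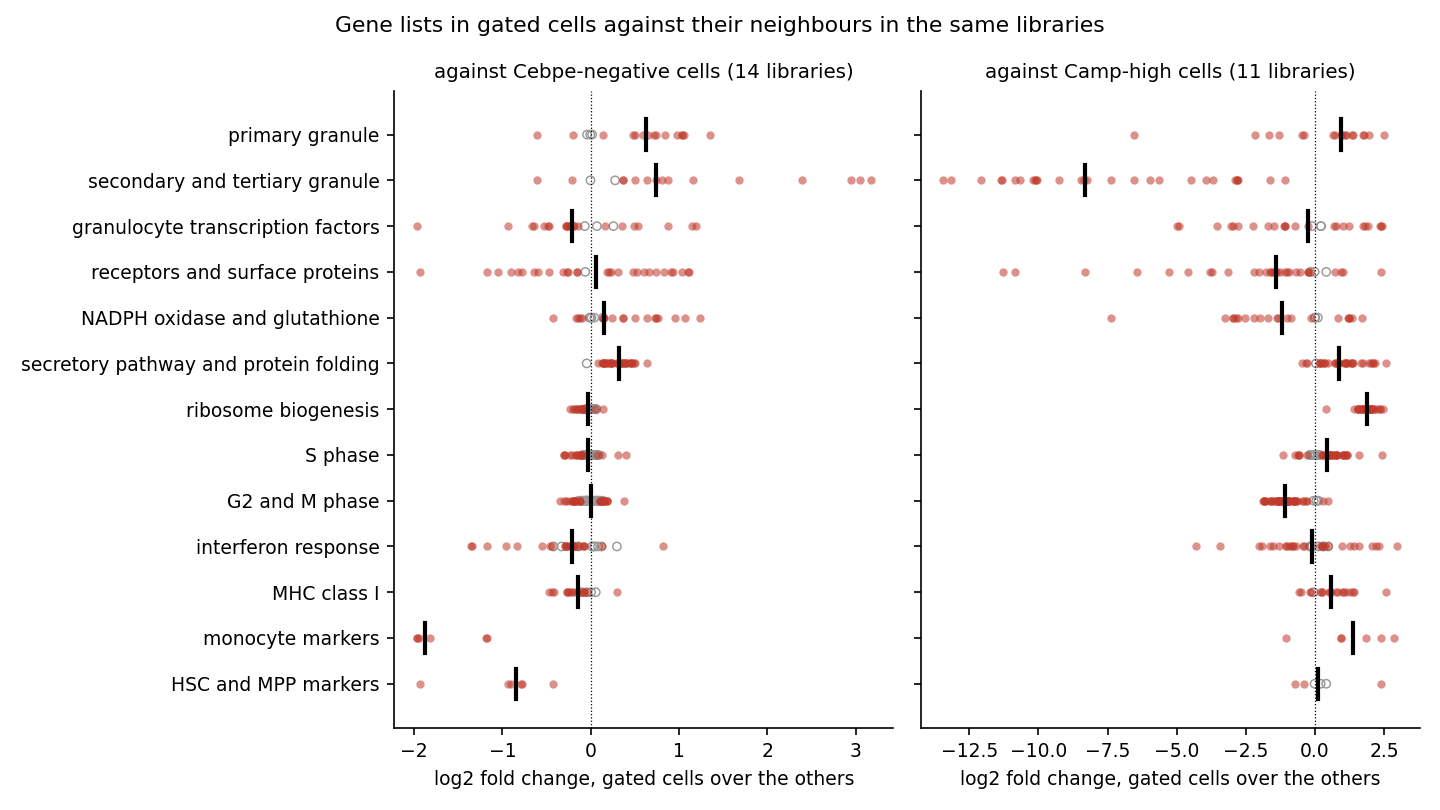
Log2 fold change of each tested gene of 13 lists, members against Cebpe-negative cells (left, 14 libraries) and against Camp-high cells (right, 11 libraries). Filled points were called at an adjusted p under 0.05, open points were not, and bars mark list medians. The secondary and tertiary list has a median of 0.73 on the left and -8.30 on the right, and ribosome biogenesis stands at 1.88 on the right.

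Between genotypes the targeted genes were examined first. The UMIs of members were summed per library and fitted over all 4 groups, and CPM here are scaled by the TMM method. The rule used raw UMIs, and depth differed by genotype. Median UMIs per member averaged 37912 over Dnmt3a libraries (28244.5 to 45691). The averages were 29888 in MxCre, 29850 in Tnfr1KO-labelled and 25922 in Tnfr2KO libraries. Tnfrsf1b (chr4:145212368-145246870, GRCm38) was at 4.199, 6.54, 4.80 and 4.80 CPM in Tnfr2KO libraries. It was at 16.2, 15.6, 15.3 and 16.6 CPM in Dnmt3a, 13.6, 16.2 and 20.4 in Tnfr1KO-labelled and 15.2, 24.5 and 20.2 in MxCre libraries. Every Tnfr2KO library lay below every other library (log2 fold change -1.64 ± 0.17 SE, adjusted p = 2.8e-05, edgeR quasi-likelihood test with Benjamini-Hochberg adjustment). Within set 2 the change was -1.72 ± 0.16, adjusted p = 0.00049, and the comparison with Tnfr1KO-labelled mice gave -1.71 ± 0.18, adjusted p = 3.9e-05. A Tnfrsf1b UMI was found in 8.13% to 17.8% of members of Tnfr2KO libraries and in 24.3% to 61.9% in the other 10, against 8.72% of erythroid cells. Tnfrsf1a (chr6:125349723-125362483), found in 72.6% of members and 26.8% of erythroid cells, was at 43.6, 40.8 and 39.9 CPM in Tnfr1KO-labelled libraries and at 38.5, 44.2, 51.9 and 55.9 in Dnmt3a libraries. These groups overlapped (log2 fold change -0.20 ± 0.13 SE, adjusted p = 0.35). The sign turned with library set as a term (0.01 ± 0.21, adjusted p = 0.98). MxCre libraries held 56.3, 54.9 and 51.9 and Tnfr2KO libraries 61.4, 49.9, 57.7 and 71.7 CPM, all above the Tnfr1KO-labelled libraries. Within set 1 Tnfrsf1a was not called in Tnfr1KO-labelled against MxCre (-0.40 ± 0.10, adjusted p = 0.2) or in Tnfr2KO against Tnfr1KO-labelled (0.43 ± 0.11, adjusted p = 0.16). Counts of 3' ends check the allele only if it lowers the number of transcript 3' ends. The labels do not say whether it does, so the Tnfr1KO label is neither borne out nor contradicted by these values. Dnmt3a (chr12:3801559-3914443) was at 34.8, 27.2, 28.4 and 32.7 CPM in Dnmt3a libraries and at 21.3, 22.3 and 24.3 in MxCre libraries (log2 fold change 0.44 ± 0.10 SE, adjusted p = 0.026; with library set as a term 0.51 ± 0.17, adjusted p = 0.3). The adjusted p was 0.065 without Dnmt3a replicate 4, and 0.15, 0.075 and 0.065 without MxCre replicates 1, 2 and 3. In the Tnfr1KO-labelled (22.2, 21.9 and 22.5) and Tnfr2KO libraries (22.96, 22.8, 22.7 and 21.1), which bear the same Dnmt3a label, it was at the MxCre level. Its transcript level therefore does not mark the 3 groups with that label.

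The gene count of each comparison is given with its background. Dnmt3a against MxCre gave 337 higher (2.8%) and 288 lower genes (2.4%), 5.2% of 12021 tested. Tnfr1KO-labelled against Dnmt3a gave 298 (2.48%) and 354 (2.94%), 5.42% together. Tnfr2KO against Dnmt3a gave 288 (2.4%) and 361 (3%), 5.4% together, and Tnfr2KO against Tnfr1KO-labelled 18 (0.15%) and 10 (0.0832%), 0.233% together. With library set as a term, a fit that is identified only through the Tnfr2KO group, the comparisons with Dnmt3a libraries had fewer calls. Dnmt3a against MxCre had 35 (0.291%), 11 higher (0.0915%) and 24 lower (0.2%). Tnfr1KO-labelled against Dnmt3a had 39 (0.324%), 27 higher (0.225%) and 12 lower (0.0998%). Tnfr2KO against Dnmt3a had 99 (0.824%), 57 higher (0.474%) and 42 lower (0.349%). Within set 2, Tnfr2KO against Dnmt3a gave 24 higher (0.202%) and 4 lower (0.0337%) of 11860 genes (0.236% together), of which 24 were also called over all libraries. Within set 1, Tnfr2KO against Tnfr1KO-labelled gave 42 (0.347%) and 34 (0.281%) of 12089 (0.629% together), and Tnfr1KO-labelled against MxCre, a comparison added after the sets were seen, gave 18 (0.149%) and 36 (0.298%), 0.447% together. Without MxCre replicate 1, 2 or 3 the first comparison gave 12, 144 or 116 genes, and without Dnmt3a replicate 1, 2 or 4 it gave 363, 969 or 349. For Tnfr1KO-labelled against Dnmt3a the count was 331, 944 or 284 without Dnmt3a replicate 1, 2 or 4, and 133, 49 or 267 without Tnfr1KO-labelled replicate 1, 2 or 3. For Tnfr2KO against Dnmt3a it was 232, 962 or 182 without Dnmt3a replicate 1, 2 or 4, and 138, 212, 275 or 412 without Tnfr2KO replicate 1, 2, 3 or 4. Within set 2 the 28 calls became 55 without Tnfr2KO replicate 4. Within set 1 the 76 calls between Tnfr2KO and Tnfr1KO-labelled became 48 or 41 without Tnfr2KO replicate 1 or 2, and the 54 between Tnfr1KO-labelled and MxCre became 30 without MxCre replicate 1. The 3 comparisons with Dnmt3a share its 4 libraries. With cells thinned to 5000 UMIs and the rule applied anew, they gave 261 (Dnmt3a against MxCre), 244 (Tnfr1KO-labelled) and 241 genes (Tnfr2KO).

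**Figure D4:**
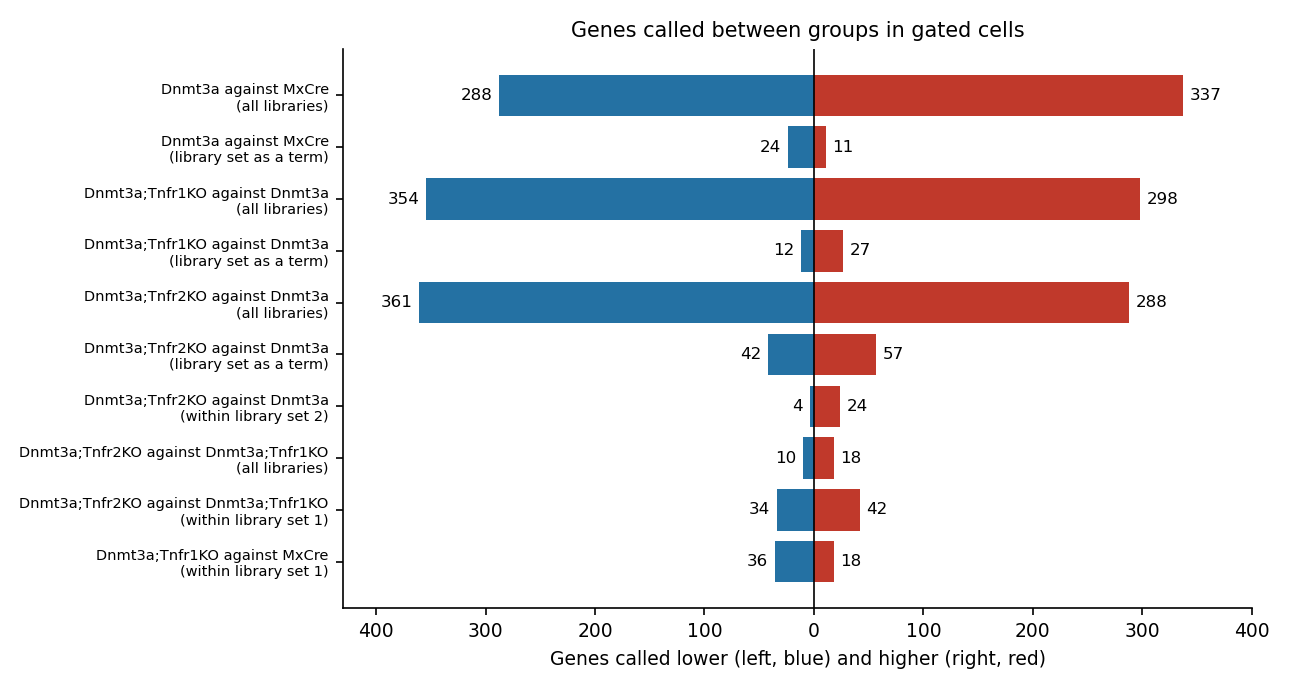
Number of genes called lower (left) and higher (right) in members for each comparison between genotypes, with all libraries and with the library set taken into account. Dnmt3a against MxCre goes from 625 calls in all to 35 with library set as a term.

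Wfdc21 was the granule gene that set the Dnmt3a libraries apart under each of these fits. It lies at chr11:83746940-83752646. Dnmt3a libraries held 31.01, 39.6, 58.5 and 51.3 CPM. MxCre libraries held 149, 181 and 131, Tnfr1KO-labelled libraries 169, 184 and 129.5 and Tnfr2KO libraries 156, 129, 254 and 105 CPM. The highest Dnmt3a library stood below the lowest of every other group. Non-overlap in either direction was found in 20.6% of all genes between Dnmt3a and MxCre libraries. It was found in 20.2% between Dnmt3a and Tnfr1KO-labelled and in 13.6% between Dnmt3a and Tnfr2KO libraries. The share of genes with Dnmt3a below every other group at once was not counted. Wfdc21 fell in Dnmt3a against MxCre (log2 fold change -1.76 ± 0.25 SE, adjusted p = 0.0039). It rose in Tnfr1KO-labelled (1.82 ± 0.25, adjusted p = 0.0016) and in Tnfr2KO libraries (1.82 ± 0.24, adjusted p = 0.00046) against Dnmt3a. Within set 2 the Tnfr2KO change was 1.997 ± 0.32, adjusted p = 0.026, and Tnfr1KO-labelled against MxCre within set 1 was 0.06 ± 0.14, adjusted p = 0.99. With library set as a term the Dnmt3a change against MxCre was -2.09 ± 0.41, adjusted p = 0.04. Wfdc21 passed the test in all 3 comparisons with Dnmt3a whichever library was left out.

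Fcnb was the other late granule gene called lower in Dnmt3a libraries, and it was not called with the library set as a term. Fcnb (chr2:28076479-28084910) was at 7.41, 10.96, 18.8 and 8.84 CPM in Dnmt3a libraries and at 33.1, 48.7 and 22.1 in MxCre libraries, without overlap (log2 fold change -1.54 ± 0.27 SE, adjusted p = 0.011). It was at 22.6, 28.5 and 29.5 in Tnfr1KO-labelled (1.17 ± 0.27, adjusted p = 0.024 against Dnmt3a) and 22.4, 25.4, 18.2 and 16.98 in Tnfr2KO libraries (0.79 ± 0.25, adjusted p = 0.075). The adjusted p for Dnmt3a against MxCre was 0.075 without MxCre replicate 1. For Tnfr1KO-labelled against Dnmt3a it was 0.058 and 0.058 without Dnmt3a replicates 1 and 4, and 0.054, 0.11 and 0.069 without Tnfr1KO-labelled replicates 1, 2 and 3. With library set as a term the Dnmt3a change against MxCre was -1.09 ± 0.42, adjusted p = 0.35, and within set 2 the Tnfr2KO change was 0.58 ± 0.29, adjusted p = 0.41. S100a8 was at 129, 249, 581 and 409.8 CPM in Dnmt3a and 927, 1124 and 502 in MxCre libraries, and the groups overlapped (log2 fold change -1.31 ± 0.39 SE, adjusted p = 0.061). The S100a8 value with library set as a term was -2.23 ± 0.60, adjusted p = 0.19. Of 21 tested secondary and tertiary granule genes, Wfdc21 and Fcnb were the 2 called in Dnmt3a against MxCre, both lower (median -0.22 over the list, against 0.00 over all genes). Over all genes 2.4% were called lower and 2.8% higher. None of 18 primary granule genes was called (median -0.14), and 12 of them had values below 0. Gstm1 (338 to 483 CPM in Dnmt3a, 438 to 556 in MxCre), Cd63 (499 to 612 and 691 to 781) and Fcgr3 (111 to 200.4 and 129 to 156) were not called in any comparison between genotypes.

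**Figure D5:**
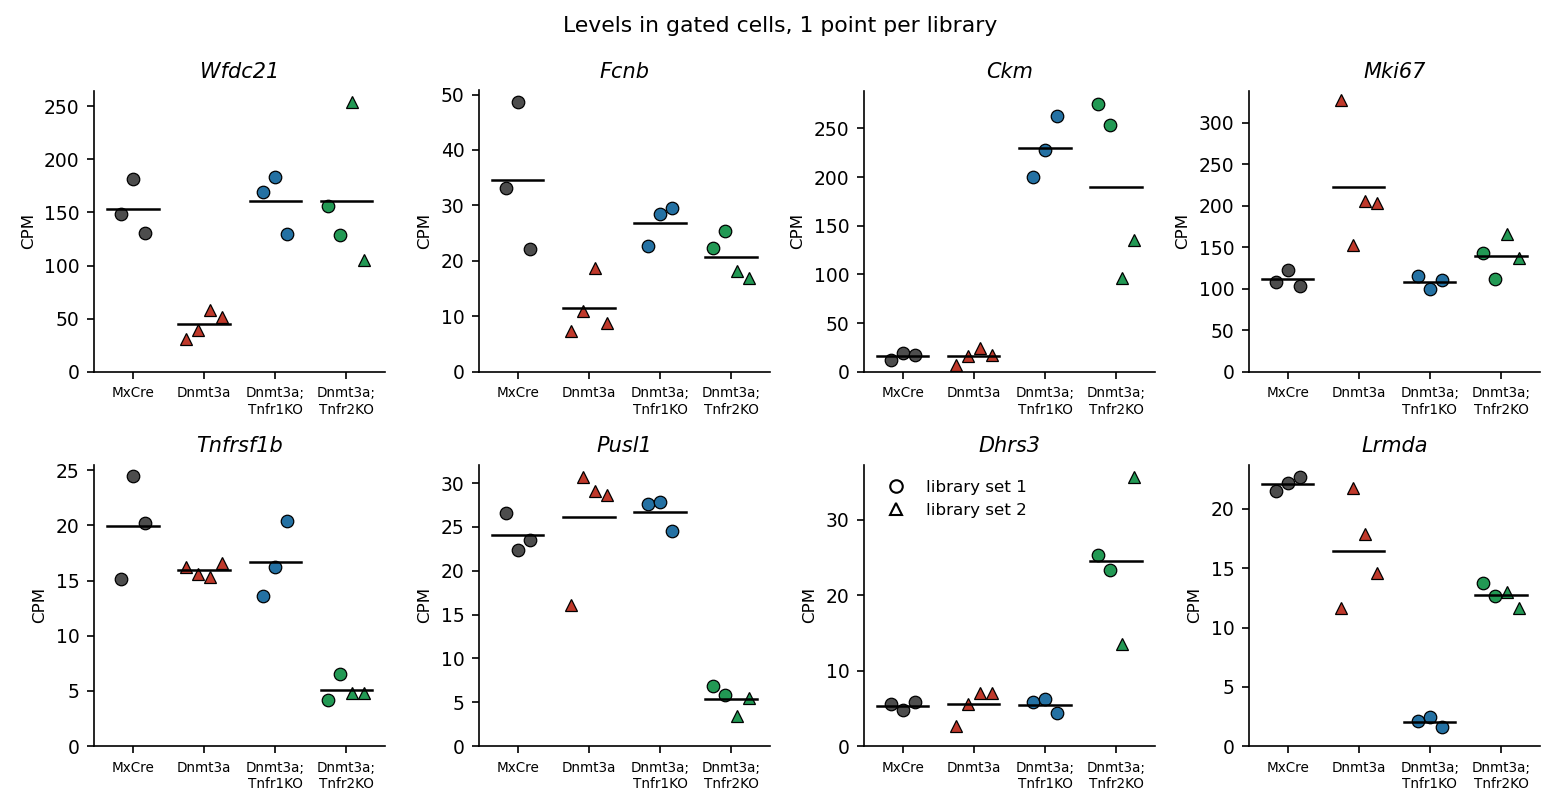
CPM in members of 8 genes, 1 point per library by genotype, circles for set 1 and triangles for set 2, with lines at group means. Dnmt3a libraries reach at most 58.5 CPM of Wfdc21 while all others hold 105 or more, and Ckm is at 96.5 CPM or more in all Tnfr1KO-labelled and Tnfr2KO libraries and at 24.1 CPM or less in the others.

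Some genes of the cell cycle, Mki67 among them, rose in Dnmt3a against MxCre, while most were not called. Mki67, a marker of proliferating cells, was at 327, 153, 205 and 203 CPM there and at 108, 123 and 103 in MxCre libraries, without overlap (log2 fold change 1.00 ± 0.19 SE, adjusted p = 0.014). It was at 115, 99.95 and 110.1 in Tnfr1KO-labelled (-1.03 ± 0.19, adjusted p = 0.0096 against Dnmt3a) and 144, 112, 166 and 137 in Tnfr2KO libraries (-0.67 ± 0.18, adjusted p = 0.037). Its adjusted p for Dnmt3a against MxCre was 0.098 and 0.063 without MxCre replicates 1 and 3. For Tnfr1KO-labelled against Dnmt3a it was 0.066 without Tnfr1KO-labelled replicate 2. For Tnfr2KO against Dnmt3a it was 0.095 and 0.062 without Dnmt3a replicates 1 and 4, and 0.079, 0.093 and 0.073 without Tnfr2KO replicates 1, 2 and 4. Of 45 S phase genes 10 rose and none fell in Dnmt3a against MxCre (median 0.17), where 2.8% of all genes rose and 2.4% fell, among them Pola1, the catalytic subunit of DNA polymerase alpha (0.68 ± 0.14, adjusted p = 0.019), and Brip1, a helicase that binds BRCA1 (0.69 ± 0.14, adjusted p = 0.017). The call of Pola1 ended when a MxCre library was left out, with adjusted p = 0.11, 0.058 and 0.071 without MxCre replicates 1, 2 and 3. For Brip1 it was 0.12 and 0.063 without MxCre replicates 1 and 2. Of 53 genes of G2 and M phase 5 rose and 2 fell (median 0.11). Against Dnmt3a, 8 of the 45 S phase genes fell in Tnfr1KO-labelled and 9 in Tnfr2KO libraries, and none rose. Over all genes 2.94% and 3% fell in these comparisons, which use the same Dnmt3a libraries as the comparison with MxCre. With the library set as a term no gene of either list was called in any of the 3 comparisons, Mki67 stood at 0.75 ± 0.31, adjusted p = 0.36 for Dnmt3a against MxCre, and within set 2 it stood at -0.54 ± 0.26, adjusted p = 0.4 for Tnfr2KO against Dnmt3a. Hist1h1b, a linker histone gene that peaks in S phase, was at 1845, 782, 919 and 951 CPM in Dnmt3a libraries, highest in replicate 1, which is also the library that kept the fewest barcodes.

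Single genes of inflammation and antigen presentation fell in Dnmt3a against MxCre. Cebpb, the C/EBP factor of emergency granulopoiesis, was at 69.2, 96.6, 68.3 and 69.5 CPM in Dnmt3a and 123, 132 and 126 in MxCre libraries (log2 fold change -0.74 ± 0.16 SE, adjusted p = 0.019; with library set as a term -0.81 ± 0.27, adjusted p = 0.29). Tnfaip2, which TNF induces in many cells, was at 19.5, 23.5, 16.7 and 14.7 and 39.8, 36.1 and 31.8 CPM (log2 fold change -0.96 ± 0.21 SE, adjusted p = 0.022). B2m, the light chain of MHC class I, changed by -0.59 ± 0.14, adjusted p = 0.024, and Psme1, a subunit of the proteasome activator, by -0.56 ± 0.14, adjusted p = 0.033. Each of these 4 genes was lower in every Dnmt3a library than in every MxCre library. Non-overlap in either direction, lower or higher, was found in 20.6% of all genes. Leaving out 1 library ended each of these calls, while the log2 fold change stayed between -0.77 and -0.71 for Cebpb, -1.04 and -0.86 for Tnfaip2, -0.60 and -0.45 for B2m and -0.65 and -0.42 for Psme1 in those fits. The adjusted p of Cebpb was 0.1, 0.062 and 0.068 without MxCre replicates 1, 2 and 3. That of Tnfaip2 was 0.053 without Dnmt3a replicate 4, and 0.14, 0.058 and 0.053 without MxCre replicates 1, 2 and 3. That of B2m was 0.059 without Dnmt3a replicate 4, and 0.16 and 0.066 without MxCre replicates 1 and 2. That of Psme1 was 0.065 and 0.066 without Dnmt3a replicates 1 and 4, and 0.21, 0.051 and 0.084 without MxCre replicates 1, 2 and 3. Over all genes 2.4% fell and 2.8% rose in this comparison. Of the lists behind these genes, MHC class I had 3 of 20 genes lower and none higher (median -0.24), and NF-kB subunits and targets had 1 of 24 lower (Tnfaip2, median -0.15). The interferon response had 2 of 39 lower and 1 higher (median -0.29). The counts of the last pair of lists are near the background. None of 28 genes of TNF receptors and proximal signalling was called (median -0.04). None of these 4 lists had a called gene in this comparison with library set as a term. Of the secretory pathway, Sec61g, a subunit of the translocon, was the 1 gene of 35 called in Dnmt3a against MxCre (-0.81 ± 0.16, adjusted p = 0.015), and its adjusted p was 0.12 without MxCre replicate 1. Its change with library set as a term was -0.41 ± 0.25, adjusted p = 0.48. Ribosome biogenesis (30 genes) had none, and granulocyte transcription factors (28 genes) had Cebpb alone.

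The TNF receptor groups differed from Dnmt3a in several genes outside the granule programme. Ckm, the muscle creatine kinase (chr7:19411094-19421583), was at 200.02, 227 and 263 CPM in Tnfr1KO-labelled and 275, 253, 96.5 and 135 in Tnfr2KO libraries. It was at 7.03, 16.7, 24.1 and 16.8 in Dnmt3a and 11.9, 18.97 and 16.8 in MxCre libraries, far below and without overlap. The change against Dnmt3a was 3.79 ± 0.35, adjusted p = 2.3e-05 for the former and 3.51 ± 0.34, adjusted p = 1.4e-05 for the latter. It held within the sets, at 2.82 ± 0.32, adjusted p = 0.0023 for Tnfr2KO against Dnmt3a and 3.87 ± 0.16, adjusted p = 3.4e-08 for Tnfr1KO-labelled against MxCre. Mnd1, which acts in recombination, was at 74.5, 65.2 and 64.5 CPM in Tnfr1KO-labelled and 67.6, 64.3, 52.96 and 64.7 in Tnfr2KO libraries. In Dnmt3a libraries it was at 25.7, 35.1, 31.98 and 29.2 and in MxCre libraries at 31.7, 34.1 and 34.2, and the change was 0.95 ± 0.16, adjusted p = 0.045 within set 2 and 1.02 ± 0.09, adjusted p = 9.3e-05 for Tnfr1KO-labelled against MxCre. Both genes were thus high in all 7 libraries with a receptor label.

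A different pair marked the Tnfr1KO-labelled libraries. Lrmda (chr14:22019504-23056093) was at 2.08, 2.43 and 1.62 CPM there, 11.7, 21.8, 17.9 and 14.6 in Dnmt3a, 21.5, 22.2 and 22.7 in MxCre and 13.7, 12.6, 12.96 and 11.7 in Tnfr2KO libraries (log2 fold change -3.02 ± 0.20 SE, adjusted p = 3.6e-07). Within set 1 the change was -3.44 ± 0.15, adjusted p = 3.4e-08 against MxCre. Apoe, the lipid carrier apolipoprotein E, was at 26.7, 33.1 and 28.4 CPM there and at 101, 98.4, 43.3 and 46.2 in Dnmt3a libraries (log2 fold change -1.29 ± 0.27 SE, adjusted p = 0.015). It was at 139, 89.3 and 101 in MxCre and 71.2, 76.7, 79.5 and 56.5 in Tnfr2KO libraries, and the change against MxCre within set 1 was -1.92 ± 0.15, adjusted p = 1.8e-05. With library set as a term, the Apoe change against Dnmt3a was -1.42 ± 0.43, adjusted p = 0.24, and its adjusted p over all libraries was 0.07, 0.066 and 0.052 without Tnfr1KO-labelled replicates 1, 2 and 3.

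In Tnfr2KO libraries some of the called genes lay near Tnfrsf1b on chromosome 4, in a share that differed by comparison. Of 28 genes called against Tnfr1KO-labelled libraries, 18 (64.3%) lay within 20 Mb of it, where 316 of the tested genes (2.63%) lie. Of 649 genes called against Dnmt3a over all libraries, 40 (6.16%) did. Within set 2 it was 10 of 28 called against Dnmt3a (35.7%) and within set 1 19 of 76 against Tnfr1KO-labelled (25%), while Tnfr1KO-labelled against MxCre had 2 of 54 (3.70%). Pusl1, a pseudouridine synthase relative (chr4:155888857-155891858), was at 6.88, 5.85, 3.47 and 5.48 CPM in Tnfr2KO and 16.1, 30.7, 29.1 and 28.7 in Dnmt3a libraries (log2 fold change -2.27 ± 0.19 SE, adjusted p = 4.4e-06). Dhrs3, a retinal reductase (chr4:144892534-144928209), was at 25.4, 23.4, 13.5 and 35.7 and 2.64, 5.64, 7.10 and 7.005 CPM (log2 fold change 2.08 ± 0.26 SE, adjusted p = 0.00035). The zinc finger gene Zfp990 (chr4:145510759-145538251) was at 10.3, 11.7, 26.7 and 22.1 CPM in Tnfr2KO libraries and at most 0.377 CPM in the other 10. Within set 2 Pusl1 changed by -2.53 ± 0.29, adjusted p = 0.0025 and Dhrs3 by 2.10 ± 0.36, adjusted p = 0.045.

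The genes of TNF receptors and their pathways had few calls. Of 28 tested genes of TNF receptors and proximal signalling, Tnfrsf1b alone was called within set 2 (Tnfr2KO against Dnmt3a) and within set 1 (Tnfr2KO against Tnfr1KO-labelled), and none in Tnfr1KO-labelled against MxCre. Over all genes these fits called 0.236%, 0.629% and 0.447%, so 0 or 1 of 28 is near the background. Within set 1, Tnfr2KO against Tnfr1KO-labelled also had 2 of 9 MHC class II genes, 1 of 14 BCL2 family genes and 1 of 5 dendritic markers lower. Within set 2 Wfdc21 was the only called gene of 22 tested secondary and tertiary granule genes, and no list besides these had a called gene. Over all libraries, Tnfr1KO-labelled against Dnmt3a gave 2 higher of 21 secondary and tertiary granule genes (Wfdc21 and Fcnb, list median 0.28) and 1 lower of 18 primary granule genes, where 2.48% of all genes were higher and 2.94% lower. Tnfr2KO against Dnmt3a gave 1 higher of 21 (Wfdc21, list median 0.28) and 1 lower of 18, where 2.4% of all genes were higher and 3% lower. Tnfaip2, Cebpb and Psme1 were called higher in Tnfr1KO-labelled against Dnmt3a, and Psme1 in Tnfr2KO against Dnmt3a. Each call ended with some single libraries left out. Without Tnfr1KO-labelled replicate 2 the log2 fold changes were 0.83, 0.58 and 0.59 (edgeR adjusted p = 0.13, 0.15 and 0.11). Without Tnfr2KO replicate 1 that of Psme1 was 0.40 (edgeR adjusted p = 0.11). Ifitm1 was called higher in Tnfr2KO against Dnmt3a (1.87 ± 0.53, adjusted p = 0.048), where Tnfr2KO libraries held 64.8, 93.3, 552 and 91.8 and Dnmt3a libraries 54.1, 54.1, 45.04 and 65.4 CPM. Replicate 3 alone stood high, and within set 2, which holds that replicate, the change was 2.57 ± 0.47, adjusted p = 0.068. Over all libraries the adjusted p was 0.12, 0.07, 0.071 and 0.081 without Dnmt3a replicates 1, 2, 3 and 4, and 0.053 and 0.18 without Tnfr2KO replicates 2 and 3. The log2 fold change without Tnfr2KO replicate 3 was 0.61.

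Some called genes belonged to other lineages or varied between libraries in a way of their own. Of 6 tested B cell markers 3 were called higher in Dnmt3a against MxCre (Ebf1, Igll1 and Vpreb1, list median 2.78), where 2.8% of all genes were higher. Vpreb1, a surrogate light chain gene, was at 8.03, 2.46, 4.22 and 22.3 CPM in Dnmt3a libraries, and Ebf1, the B cell transcription factor, at 3.77, 1.83, 2.44 and 18.4. Replicate 4 held most of both, and it also had the highest erythroid and B cell sums. The adjusted p of Ebf1 was 0.072 without Dnmt3a replicate 4, and 0.17, 0.078 and 0.079 without MxCre replicates 1, 2 and 3. That of Igll1 was 0.073 without Dnmt3a replicate 4 (log2 fold change 1.49), and 0.19, 0.088 and 0.12 without MxCre replicates 1, 2 and 3 (2.98, 3.24 and 3.04). That of Vpreb1 was 0.13, 0.067 and 0.094 without MxCre replicates 1, 2 and 3. None of the 3 was called with library set as a term against MxCre, at 7.96 ± 2.24, adjusted p = 0.22 for Ebf1, 3.76 ± 1.27, adjusted p = 0.3 for Igll1 and 2.45 ± 0.89, adjusted p = 0.32 for Vpreb1. Mtus2, which encodes a microtubule-associated protein, was at 25.3, 23.1 and 13.03 CPM in MxCre libraries and at most 2.86 CPM in the other 11. Hormad2, a meiotic chromosome gene, was at 17.5, 14.7 and 6.89 CPM in MxCre and 16.6, 15.9, 0.116 and 0.537 in Tnfr2KO libraries, and below 1 CPM in all others. In the Tnfr2KO group it was thus high in both libraries of set 1 and low in both of set 2.

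Finally, the group differences of members were compared with those of Cebpe-negative cells in 1 model with an interaction term (11202 genes). At an adjusted p under 0.05, edgeR called 0 genes for Dnmt3a against MxCre, 0 for Tnfr1KO-labelled against Dnmt3a, 0 for Tnfr2KO against Dnmt3a and 1 for Tnfr2KO against Tnfr1KO-labelled (0.00893%). At an unadjusted p under 0.05 the counts were 480, 500, 473 and 460, each fewer than the 1 in 20 of 11202 genes that chance gives. With no filter on low counts 19, 22, 20 and 23 genes were called. The 1 gene was H2-Eb1, an MHC class II chain, which was singled out after its values were seen. It was not called without Tnfr1KO-labelled replicate 1, without Tnfr1KO-labelled replicate 2, without Tnfr2KO replicate 3 or with cells thinned to 5000 UMIs. Its level was under 10 CPM throughout, at 0.458 ± 0.223 CPM (SD, n = 4) in Tnfr2KO and 2.79 ± 1.72 (n = 3) in Tnfr1KO-labelled members. In Cebpe-negative cells it was at 3.44 ± 5.15 and 0.740 ± 0.833 CPM. The log2 difference of differences was -4.56 (SE 0.816, adjusted p = 0.0358 by edgeR). Libraries held 30 to 515 Cebpe-negative cells, which limits what this comparison can detect.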

How the data were processed

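Single-cell RNA was captured with 10x Chromium 3' chemistry, version 3.1, and the deposited matrices hold raw UMI counts per gene and cell barcode (32285 features, 14 libraries, 86693 barcodes). Per the submitters' processing notes, reads were handled with bcl2fastq 2.20.0.422 and Cell Ranger 6.0.0 on mm10 (GRCm38), and the file headers name the same Cell Ranger version. Total counts per library ran from 62416022 to 162869740 UMIs. The authors' filters beyond barcode calling are not given in the sources used here.

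From these counts, cells were filtered and gated as the report states. The members and the 28 gene lists were chosen with earlier results of these data known. Doublets were called per library against 2 simulated doublets per cell (2000 genes, 30 components, 30 neighbours, 0.8% per 1000 barcodes) and removed only in an alternative. UMIs were summed per library and gate and tested with edgeR 4.0.16 (quasi-likelihood, TMM, filterByExpr) in R 4.3.3, with all 4 groups in 1 model. Gates were compared with library as a block, leaving out libraries with under 20 cells. P-values were adjusted by Benjamini-Hochberg over all genes tested, at 0.05. SEs were derived from the log2 fold change and its F statistic. Shares were compared by exact two-sided permutation tests (SciPy 1.17.1). Scripts were tested on simulated data. Positions came from RefSeq (GRCm38.p6) by symbol, for 11495 of 12024 genes.

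Genes were named by rule. Between groups these were up to 6 called genes per direction of largest fold with at least 10 CPM in a group and no overlap, and between gates up to 10 with at least 100 CPM. Up to 4 called genes came from each list, or the 2 of highest CPM where none was called, and the markers and targeted genes were always included. The text describes a selection of these, chosen with their values known, and S100a8 and S100a9 as well as Zfp990, Mtus2, Hormad2, Apoe and Ebf1 are among the genes picked that way. Alternatives were DESeq2 1.42.0 and its size factors, no filter, only the groups compared, a replicate block, doublets removed, cells thinned to 5000 UMIs before the rule (so that 3106 of the 7794 cells passing it were not members), a Camp limit of 3, a UMI minimum of 2000, another denominator and each replicate left out. The library sets, defined by 2 genes in cells outside the gate, and the fits that use them were chosen after the data were seen. A result on a withheld item is not reported here.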

Additional observations from a re-analysis of the deposited data

Results flagged for a closer look

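In groups of 4 libraries, the highest or lowest library was compared with the other 3 by Dixon's test for an outlying value. It was run on 76 gene and group combinations in members, chance marks about 1 in 20, and 14 were marked.

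Dnmt3a replicate 1 stood apart in genes of the cell cycle and in 2 others. Its Hist1h1b level was 1845 CPM against 782 to 951 in the other Dnmt3a libraries, and its Pola1 level 101 CPM against 64.3 to 67.3. Gm10076, a ribosomal protein pseudogene, was at 83.7 CPM against 176 to 193, and Pusl1 at 16.1 against 28.7 to 30.7. This library kept 26.9% of its barcodes and had 139 members. Dnmt3a replicate 2 was high in B2m, at 856 CPM against 629 to 645, and in Cebpb, at 96.6 against 68.3 to 69.5.

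Dnmt3a replicate 4 was high in genes of B cells and eosinophils. Ebf1 was at 18.4 CPM against 1.83 to 3.77, Igll1, a surrogate light chain gene, at 18.4 against 1.19 to 3.01, Cd79a, a B cell receptor chain, at 22.8 against 0 to 3.39, and Prg2 at 35.8 against 2.13 to 6.26. The same library had the highest sum of erythroid markers, and the part of other cells' RNA was not tested.

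In the Tnfr2KO group, replicate 3 held 552 CPM of Ifitm1 against 64.8 to 93.3 in the others, and replicate 1 held 0.760 CPM of Ebf1 against at most 0.0565. Replicate 4 held 1.16 CPM of Mtus2 against at most 0.0404, and 21.1 CPM of Dnmt3a against 22.7 to 22.96, a gap small in size.

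H2-Eb1 had a difference between Tnfr2KO and Tnfr1KO-labelled libraries that itself differed between members and Cebpe-negative cells, by -4.56 on the log2 scale (SE 0.816, adjusted p = 0.0358, edgeR interaction), at levels under 10 CPM.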

How the results depend on the processing

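Counts of called genes depended on the fit. For Dnmt3a against MxCre (625 genes), DESeq2 called 1147, the 2 groups alone 240, cells thinned to 5000 UMIs 261, and library set as a term 35. For Tnfr1KO-labelled against Dnmt3a (652) these were 1155, 236, 244 and 39. For Tnfr2KO against Dnmt3a (649) they were 1115, 45, 241 and 99, and 28 within set 2. Tnfr2KO against Tnfr1KO-labelled (28) gave 53 with DESeq2, 71 without a filter, 14 thinned and 76 within set 1. Members against Cebpe-negative cells (4499) gave 1769 thinned and 2766 within set 2. The interactions (0, 0, 0 and 1 genes) gave 19, 22, 20 and 23 without a filter, and 1 and 2 thinned for the last pair. Replicate numbers did not pair the libraries: 3 of 19 same-number pairs had deviations correlated above 0.1 (median r = -0.00225). A replicate block gave 331, 315, 329 and 33 genes in the 4 comparisons of groups.

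Leaving out 1 library gave 12 to 969 genes for Dnmt3a against MxCre, 49 to 944 for Tnfr1KO-labelled against Dnmt3a, 138 to 962 for Tnfr2KO against Dnmt3a, 21 to 38 for Tnfr2KO against Tnfr1KO-labelled and 30 to 67 for Tnfr1KO-labelled against MxCre. The last was 67 without Tnfr1KO-labelled replicate 1 and 30 without MxCre replicate 1. It gave 4152 to 4474 genes against Cebpe-negative and 7786 to 8332 against Camp-high cells, and 0 to 3, 0 to 7, 0 to 8 and 0 to 9 interactions. The difference in share went from -1.92 to 2.19 points for Dnmt3a against MxCre (-1.92 without Dnmt3a replicate 3, -0.339 without Dnmt3a replicate 2, -0.99 without MxCre replicate 3). It went from 1.34 to 5.45, 3 to 7.11 and 0.0375 to 2.76 for the other comparisons. As a share of cells with at least 10 Elane UMIs, Dnmt3a against MxCre was -9.71 points (exact permutation p = 0.114).

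With library set as a term, the sign turned for Dnmt3a against MxCre in Hist1h2ap (1.03) and Gm10076 (0.66), and for Tnfr1KO-labelled against Dnmt3a in Gm10076 (-0.16), Hist1h2ap (-0.57) and Tnfrsf1a (0.0149). Hist1h2ap and Gm10076 define the library sets, so the loss of their difference in this fit was bound to follow and is no result. Between members and Cebpe-negative cells the sign turned for Hbb-bs (-1.22 without doublets, -0.10 thinned), Cpa3 (1.09) and Mcpt8 (0.14), both thinned. The causes were not tested. Genes under about 10 CPM rest on few UMIs in the smallest libraries.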
